A study of Mus musculus with 9 samples.

Results

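The genes described here are 34 nuclear genes for mitochondrial enzymes that oxidise pyruvate and fatty acids. These genes were followed in RENCA, a mouse cell line from a renal carcinoma, as empty-vector, Ndufa4l2 knockout and rescue cells. They were listed by gene name, with earlier results of these data known: 6 genes of pyruvate entry, 12 of the tricarboxylic acid cycle without succinate dehydrogenase, and 16 of mitochondrial fatty acid oxidation. The deposited table held 54532 genes, of which 13326 had enough counts to be tested, and all 34 were among them.

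There were 9 libraries, with 3 in each group. They carry genomic DNA as their molecule label, but the protocol describes purifying poly(A) RNA, and they were read as RNA. Rescue cells were made from the knockout line with a lentivirus that expresses Ndufa4l2 and selected with puromycin, and their genotype is labelled NDUFA4L2 +/+. Knockout cells (NDUFA4L2 -/-) carried a CRISPR edit of Ndufa4l2 made with 1 guide and were grown up from single cells, so differences between clones cannot be told apart from the edit. Empty-vector cells (genotype WT) were the controls, and their cloning or selection with puromycin was not given in the sources used here. All groups were grown in the same RPMI medium with serum, glutamine and sodium pyruvate, the substrate of the first enzymes below. The labels do not say whether replicates were separate cultures, so p-values measure only how far these libraries spread, and that spread may be technical. The series' design text counts fewer knockout replicates than the 3 labelled ones, and all 3 entered the fit.

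Pyruvate enters the mitochondrial matrix and is either oxidised to acetyl-CoA by the pyruvate dehydrogenase complex or carboxylated to oxaloacetate by pyruvate carboxylase. Fatty acids enter as carnitine esters and are shortened in rounds of dehydrogenation, hydration, a second oxidation and thiolysis, which also end in acetyl-CoA. The tricarboxylic acid cycle oxidises acetyl-CoA and passes electrons to the respiratory chain, and cells of the proximal renal tubule are known for their heavy use of fatty acid oxidation.

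The labels and the cells were checked first. Ndufa4l2 averaged 2.48 ± 0.239 CPM (counts scaled by the TMM-adjusted library size) in rescue cells, 0.453 ± 0.204 in knockout cells and 0.520 ± 0.128 in empty-vector cells (SD, n = 3 each). It was higher in rescue than in knockout (log2 change 2.57 ± 0.34, SE, edgeR adjusted p = 2.15e-06). It was also higher in rescue than in empty vector (2.20 ± 0.30, adjusted p = 8.03e-06), so rescue cells lay above the level of the controls. Knockout and empty vector did not differ at this depth (-0.36 ± 0.42, adjusted p = 0.472). A count over the whole gene does not show whether its sequence was edited. Total counts per library ran between 13106531 and 26643877. The renal markers Pax8, Cdh16, Krt8 and Krt18 were expressed in every group, while Havcr1 was at 0 and Epcam, Slc34a1 and Hnf4a at or near 0. Of 16 leukocyte markers, 7 were at 0 in every library, among them Cd3e and Itgam, and Ptprc and Tyrobp were near 0. The summed level of that list was 39.7 to 45.2 CPM in rescue, 212 to 228 in knockout and 78.5 to 84.6 in empty-vector libraries, most of it Cd68. Only 4 of its 16 genes could be tested. All 4 were higher in knockout than in empty vector, beside 29.5% of all tested genes. All 4 were lower in rescue than in knockout, beside 27.3%. Of 10 tested genes of the renal list, 6 were higher and 3 lower in knockout than in empty vector. In rescue against knockout 3 of these were higher and 4 lower. The fibroblast list summed to 28.4 to 30.4 CPM in rescue, 59.6 to 70.8 in knockout and 26.3 to 33.3 in empty-vector libraries, most of it Pdgfrb, with Lum at 0. Genes of the mitochondrial genome took 2.23% to 2.65% of counts in rescue, 5.79% to 7.93% in knockout and 2.16% to 3.17% in empty-vector libraries. The part of these marker levels in the results below was not tested, whereas the mitochondrial share was taken out of the library sizes in an alternative given below.

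Promoter sequences are shown for the genes whose changes were largest or moved as a pair: Hadhb, which shares a start region with Hadha, Pcx, and both carnitine palmitoyltransferase genes. Each window runs from 250 bases before to 50 bases after the RefSeq transcription start in GRCm38.p6, which is the mm10 build of the files. Capitals mark letters of those searched motifs that were found in these windows on either strand. They are the SP1 box GGGCGG, the CCAAT box, the E-box CACGTG, the nuclear receptor half-site AGGTCA and the ETS element CCGGAAGT.
Hadhb, chr5:30155003-30155302, plus strand: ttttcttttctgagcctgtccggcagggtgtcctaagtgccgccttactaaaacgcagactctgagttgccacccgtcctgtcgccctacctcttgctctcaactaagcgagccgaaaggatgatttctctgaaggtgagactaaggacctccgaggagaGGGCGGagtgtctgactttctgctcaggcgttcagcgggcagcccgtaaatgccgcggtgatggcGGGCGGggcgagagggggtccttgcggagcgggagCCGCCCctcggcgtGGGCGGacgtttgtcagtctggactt
Pcx, upstream start, chr19:4510222-4510521, plus strand: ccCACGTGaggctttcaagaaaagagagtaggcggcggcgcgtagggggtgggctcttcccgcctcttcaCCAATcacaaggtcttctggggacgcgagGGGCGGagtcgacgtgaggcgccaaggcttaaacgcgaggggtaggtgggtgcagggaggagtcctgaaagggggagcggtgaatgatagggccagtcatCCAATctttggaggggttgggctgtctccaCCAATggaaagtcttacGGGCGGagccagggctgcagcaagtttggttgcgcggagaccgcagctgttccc
Cpt1a, chr19:3323051-3323350, plus strand: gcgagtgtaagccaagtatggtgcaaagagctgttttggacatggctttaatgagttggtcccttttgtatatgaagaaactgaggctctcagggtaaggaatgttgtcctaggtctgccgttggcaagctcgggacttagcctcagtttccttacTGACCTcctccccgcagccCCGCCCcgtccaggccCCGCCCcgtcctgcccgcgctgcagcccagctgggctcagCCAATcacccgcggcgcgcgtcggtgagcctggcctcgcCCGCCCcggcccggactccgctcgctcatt
Cpt2, chr4:107923540-107923839, minus strand: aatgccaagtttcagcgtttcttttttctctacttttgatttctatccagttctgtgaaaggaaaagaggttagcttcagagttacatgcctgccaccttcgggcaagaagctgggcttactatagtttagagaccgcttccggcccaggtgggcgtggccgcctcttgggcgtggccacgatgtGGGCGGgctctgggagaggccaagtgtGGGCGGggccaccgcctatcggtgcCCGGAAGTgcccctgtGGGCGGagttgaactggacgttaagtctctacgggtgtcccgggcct

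Hadha and Hadhb stood head to head, with start sites 273 bases apart and windows that overlapped by 228 bases. The Hadhb window held 4 SP1 boxes, the Cpt2 window 3 SP1 boxes and 1 ETS element, and the Cpt1a window 3 SP1 boxes, 1 CCAAT box and 1 half-site. The upstream Pcx window held 3 CCAAT boxes, 2 SP1 boxes and 1 E-box. RefSeq windows matched 32 of the 34 genes by symbol, in 38 windows, of which 6 overlapping or nearby ones belonged to Ogdh. Their median GC content was 61.2%, against 52.7% over all 32851 windows in the table. An SP1 box was present in 71.1% of the windows and in 35.7% of all, a CCAAT box in 57.9% and 37.4%, and a half-site in 23.7% and 16.3%. No window held the TATA box TATAAA, which 13.6% of all windows held. The estrogen-related receptor element TCAAGGTCA, which contains the half-site, was in none of the windows and in 0.423% of all. These are letter matches in fixed windows and say nothing of binding.

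In knockout against empty vector, 10 of the 34 genes rose and 15 fell, and the other 9 did not pass the test (edgeR quasi-likelihood test, adjusted p under 0.05 by Benjamini-Hochberg over 13326 genes). These are 29.4% and 44.1% of the 34, beside 29.5% of all tested genes higher and 31.1% lower. Pyruvate carboxylase and carnitine palmitoyltransferase 2 rose most, and enoyl-CoA isomerase 1, a succinyl-CoA synthetase subunit and the subunits Dlat and Dld fell most. By arm, of the 18 pyruvate and cycle genes 3 rose and 10 fell, and of the 16 fatty acid oxidation genes 7 rose and 5 fell. The members went both ways, with log2 changes of -0.70 to 1.22 and a median of -0.11, against a median of -0.02 over all genes tested. Of the 34 genes 1, Pcx, passed with a change of more than 1 on the log2 scale, as did 12.1% of all tested genes.

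In rescue against knockout, 11 of the 34 genes rose (32.4%), 8 fell (23.5%) and 15 did not pass, beside 29.5% of all tested genes higher and 27.3% lower. Of the pyruvate and cycle genes 7 rose and 2 fell, and of the fatty acid oxidation genes 4 rose and 6 fell. The median log2 change was 0.091 over the 34 genes and 0.033 over all. In rescue against empty vector, 7 genes rose (20.6%) and 9 fell (26.5%), beside 22.4% and 25.1% of all tested genes, with a median log2 change of -0.032 against -0.018. The 3 comparisons share libraries with each other, so their results are not independent.

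These counts depended on the scale in places. Scaling by library totals alone, without TMM factors, shifted the median log2 change of all genes by -0.15 in knockout against empty vector and by 0.18 in rescue against knockout. The members called were then 8 higher and 21 lower in knockout against empty vector, and 20 higher and 5 lower in rescue against knockout. The higher share of all calls was 34.4% with totals and 48.7% with TMM factors in the first comparison, and 69.6% and 51.9% in the second. With the genes of the mitochondrial genome left out of the library sizes, the members called were 10 higher and 14 lower in knockout against empty vector and 11 higher and 8 lower in rescue against knockout. Of all tested genes, 60.6% and 56.8% were called in that fit, in the same order. Without empty-vector replicate 1, 13 members were higher in rescue than in empty vector, in place of 7. Over all tested genes, 3476 of 13617 were then higher, in place of 2988 of 13326.

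**Figure D1:**
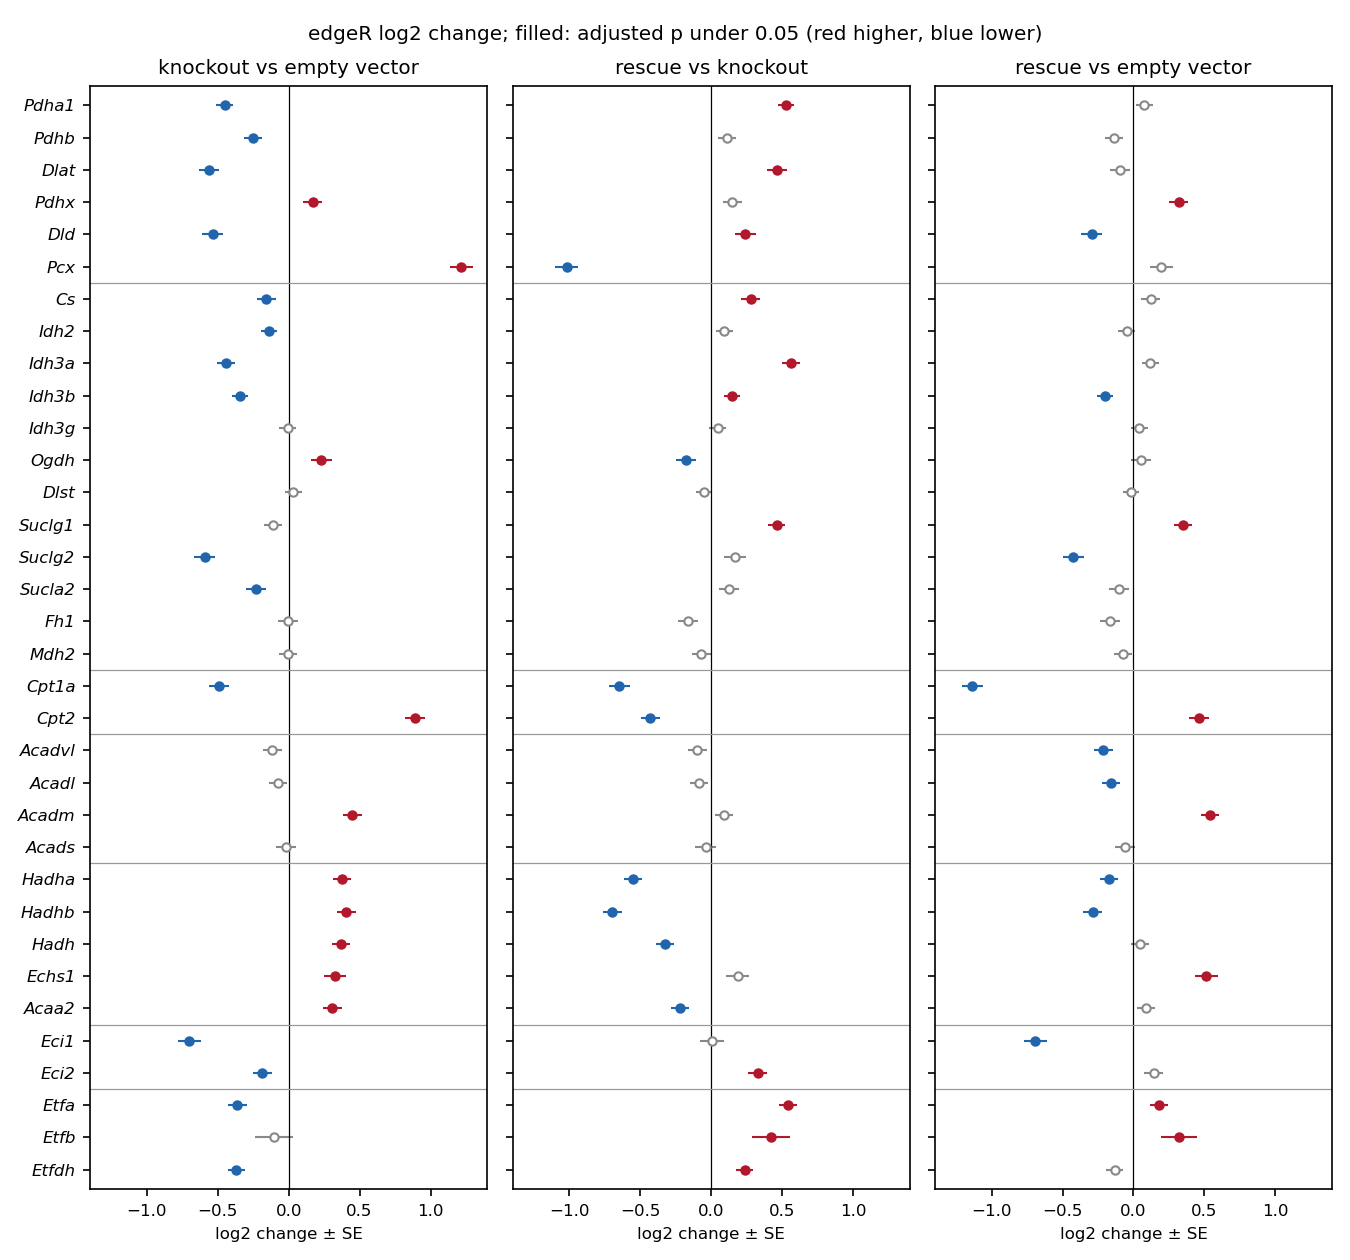
The edgeR log2 change of each of the 34 genes, with its SE as a bar, in 1 panel per comparison (knockout over empty vector, rescue over knockout, rescue over empty vector), ordered by pathway step with lines between steps. Filled points passed an adjusted p under 0.05, red for higher and blue for lower. In the left panel 10 points are red and 15 blue, with Pcx at 1.22 and Eci1 at -0.70 at the ends.

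Of the 6 genes of pyruvate entry, 2 rose and 4 fell in knockout against empty vector. Of all tested genes, 29.5% were higher and 31.1% lower there. The 4 that fell were pyruvate dehydrogenase genes. Those that rose were Pdhx, also of that complex, and Pcx, which encodes the carboxylase that makes oxaloacetate. Pcx (ENSMUSG00000024892, chr19:4510472-4621752, plus strand) had 43.6, 40.9 and 43.0 CPM in rescue libraries, 85.1, 92.2 and 81.8 in knockout libraries and 40.1, 31.4 and 39.2 in empty-vector libraries. Knockout was highest by a wide margin, rescue next and empty vector lowest. No groups overlapped, although rescue replicate 2 and empty-vector replicate 1 nearly met. The log2 change was 1.22 ± 0.081 in knockout against empty vector (adjusted p = 2.08e-10) and -1.02 ± 0.080 in rescue against knockout (adjusted p = 2.19e-09). Rescue against empty vector did not pass at 0.20 ± 0.082 (adjusted p = 0.0543), but passed with library totals and without empty-vector replicate 1 or 3.

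Pdha1, the E1 alpha subunit of pyruvate dehydrogenase that carries its regulatory phosphorylation sites (chrX:160122209-160138413, minus strand), had 135, 149 and 146 CPM in rescue, 102, 98.0 and 98.2 in knockout and 139.9, 134 and 133 in empty-vector libraries. All 3 knockout libraries were lowest, and rescue and empty vector overlapped. It fell by 0.45 ± 0.059 on the log2 scale in knockout against empty vector (adjusted p = 1.84e-06) and rose by 0.53 ± 0.059 in rescue against knockout (adjusted p = 2.75e-07). Dlat, the E2 acetyltransferase core (chr9:50634633-50659780, minus strand), had 133, 147 and 157 CPM in rescue, 102, 99.8 and 113 in knockout and 165, 149 and 151 in empty-vector libraries. The knockout libraries were again below all others, with log2 changes of -0.56 ± 0.071 in knockout against empty vector (adjusted p = 1.25e-06) and 0.47 ± 0.071 in rescue against knockout (adjusted p = 1.38e-05). For Pdha1 and Dlat, rescue against empty vector did not pass (adjusted p = 0.291 and 0.285).

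Dld, the E3 dihydrolipoamide dehydrogenase that also serves the 2-oxoglutarate complex (chr12:31331277-31351453, minus strand), had 295, 307 and 331 CPM in rescue, 270.5, 262 and 256 in knockout and 429, 347 and 367 in empty-vector libraries. The 3 groups did not overlap, with rescue between the others. Its log2 change was -0.54 ± 0.075 in knockout against empty vector (adjusted p = 4.56e-06), 0.24 ± 0.075 in rescue against knockout (adjusted p = 0.00997) and -0.30 ± 0.075 in rescue against empty vector (adjusted p = 0.00304); the second call was lost without rescue replicate 3. Pdhb, the E1 beta subunit, fell in knockout against empty vector (-0.25, adjusted p = 0.00204), and its value of 0.12 in rescue against knockout did not pass. Pdhx, which tethers E3 to the complex, was the subunit that went the other way: it was higher in knockout than in empty vector (0.17, adjusted p = 0.0411) and in rescue than in empty vector (0.32, adjusted p = 0.000733), although the first call was lost under 12 of the 18 alternatives.

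Of the 12 genes of the cycle itself, 6 fell and 1 rose in knockout against empty vector. Of all tested genes, 31.1% were lower and 29.5% higher there. In rescue against knockout 4 rose and 1 fell, beside 29.5% of all tested genes higher and 27.3% lower. In rescue against empty vector 1 rose and 2 fell, beside 22.4% higher and 25.1% lower. Whether these counts differ from those shares was not tested. Idh3a, the catalytic subunit of the NAD-dependent isocitrate dehydrogenase (chr9:54586334-54604661, plus strand), had 105, 115 and 113 CPM in rescue, 75.2, 70.6 and 79.3 in knockout and 104, 102 and 101 in empty-vector libraries. Knockout was lowest in all 3 libraries, with log2 changes of -0.44 ± 0.062 against empty vector (adjusted p = 4.28e-06) and 0.56 ± 0.062 for rescue against knockout (adjusted p = 2.27e-07). Of its regulatory partners, Idh3b fell in knockout against empty vector (-0.35, adjusted p = 2.81e-05), rose in rescue against knockout (0.15, adjusted p = 0.0328) and was lower in rescue than in empty vector (-0.20, adjusted p = 0.00671); its call in rescue against knockout was lost under 7 of 18 alternatives, DESeq2 among them. Idh3g passed in none of the comparisons, with log2 values of -0.0069, 0.047 and 0.040 in the same order.

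Succinyl-CoA synthetase is built from the shared alpha subunit Suclg1 and 1 of 2 beta subunits, the GTP-forming Suclg2 or the ATP-forming Sucla2. Suclg2 (chr6:95473009-95718800, minus strand) had 71.9, 74.3 and 84.7 CPM in rescue, 70.8, 71.2 and 63.4 in knockout and 93.8, 105 and 111 in empty-vector libraries. It was lower than empty vector in knockout (-0.59 ± 0.077, adjusted p = 1.58e-06) and in rescue (-0.42 ± 0.075, adjusted p = 0.000127), with every library of both groups below every empty-vector library. Rescue against knockout was 0.17 and did not pass (adjusted p = 0.0685). Of the 50-base words in Suclg2 transcripts, 16.0% also occur in Gm15163, so its level is less certain. Gm15163 averaged 5.28 CPM in rescue, 4.45 in knockout and 6.57 in empty-vector cells. Sucla2 fell in knockout against empty vector (-0.23, adjusted p = 0.00797), and its other comparisons did not pass. Suclg1 differed in rescue instead, higher than in knockout (0.46, adjusted p = 3.71e-06) and than in empty vector (0.35, adjusted p = 0.000129), while knockout against empty vector was -0.11 and did not pass.

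The other cycle genes changed by at most 0.28 on the log2 scale. Cs, citrate synthase at the entry to the cycle, had a log2 change of -0.16 in knockout against empty vector (adjusted p = 0.0487) and rose by 0.28 in rescue against knockout (adjusted p = 0.00139). Idh2, the NADP-dependent mitochondrial isocitrate dehydrogenase, was called lower in knockout than in empty vector by a narrow margin (-0.14, adjusted p = 0.0497); the calls of Cs and Idh2 in that comparison were lost under 13 and 14 of 18 alternatives. Ogdh, the E1 subunit of the 2-oxoglutarate dehydrogenase complex, was the cycle gene that rose in knockout against empty vector (0.23, adjusted p = 0.00922), a call lost with library totals and without empty-vector replicate 2 or 3. It was called lower in rescue than in knockout (-0.18, adjusted p = 0.0421), but that call was lost under 9 of 18 alternatives: without any of the 6 rescue and knockout libraries, without empty-vector replicate 3, with no filter on low counts, and with library totals, where the value became 0.0081. Dlst, the E2 subunit of that complex, Fh1, fumarase, and Mdh2, the mitochondrial malate dehydrogenase, passed in no comparison, with log2 values between -0.16 and 0.033. Dlst became higher in rescue than in knockout with library totals (0.14, adjusted p = 0.0426). Fh1 narrowly missed in rescue against knockout (adjusted p = 0.0563), and was called lower there under 6 of 18 alternatives, DESeq2 among them.

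**Figure D2:**
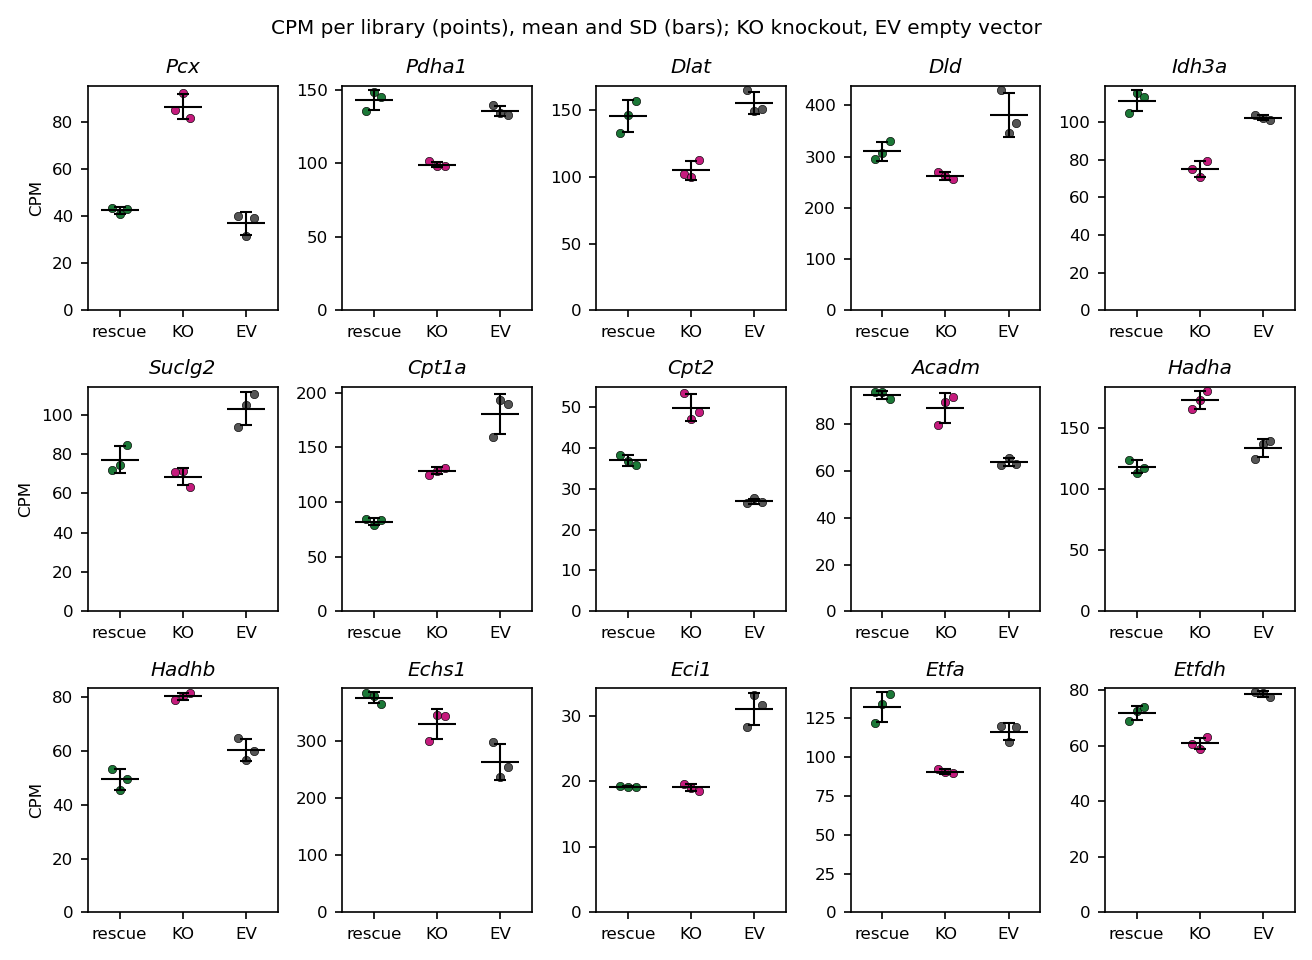
CPM of 15 genes in each library (points), with the mean and SD of 3 libraries as bars, rescue left, then knockout (KO) and empty vector (EV), each axis starting at 0. Pcx stands at 81.8 to 92.2 CPM in knockout against 31.4 to 40.1 in empty vector, Cpt1a is lowest in rescue, and Eci1 is at 18.6 to 19.6 CPM in rescue and knockout against 28.4 to 33.2 in empty vector.

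Fatty acid entry was divided between the 2 carnitine palmitoyltransferases, which moved in opposite directions in knockout against empty vector. Cpt1a, the outer-membrane enzyme that makes acylcarnitine and is known as the controlled step of entry (chr19:3323301-3385732, plus strand), had 84.2, 78.5 and 83.4 CPM in rescue, 125, 129 and 131 in knockout and 159, 193 and 189 in empty-vector libraries. The groups did not overlap: rescue was lowest, knockout in the middle and empty vector highest. Its log2 change was -0.49 ± 0.070 in knockout against empty vector (adjusted p = 5.4e-06), -0.65 ± 0.071 in rescue against knockout (adjusted p = 2.28e-07) and -1.14 ± 0.071 in rescue against empty vector (adjusted p = 3.96e-10), the last being the largest change of any of the 34 genes in that comparison. Rescue libraries were therefore further from empty vector than knockout libraries were.

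Cpt2, the inner-membrane enzyme that remakes acyl-CoA in the matrix (chr4:107903981-107923610, minus strand), had 38.3, 36.7 and 35.7 CPM in rescue, 53.5, 47.1 and 48.6 in knockout and 26.4, 27.6 and 26.7 in empty-vector libraries. Here knockout was highest, rescue in the middle and empty vector lowest, again without overlap. The log2 change was 0.89 ± 0.070 in knockout against empty vector (adjusted p = 2.25e-09), -0.43 ± 0.069 in rescue against knockout (adjusted p = 2.5e-05) and 0.46 ± 0.070 in rescue against empty vector (adjusted p = 2.65e-05). In FPKM, a level per kilobase deposited by the authors, the ratio of Cpt1a to Cpt2 was 1.24 ± 0.055 in rescue, 1.44 ± 0.12 in knockout and 3.72 ± 0.32 in empty-vector cells (SD, n = 3 each).

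Among the acyl-CoA dehydrogenases, which take acyl chains of falling length through the first oxidation, 1 of 4 passed the test in knockout against empty vector, the medium-chain gene. Acadm (chr3:153922357-153944632, minus strand) had 93.4, 93.4 and 90.4 CPM in rescue, 79.3, 89.3 and 91.6 in knockout and 62.5, 65.5 and 62.7 in empty-vector libraries. Rescue and knockout overlapped and both lay above every empty-vector library, by 0.45 ± 0.064 for knockout (adjusted p = 5.21e-06) and 0.54 ± 0.063 for rescue (adjusted p = 1.21e-06). Rescue against knockout was 0.090 and did not pass. Acadvl, for very long chains, and Acadl, for long chains, did not pass in knockout against empty vector (-0.12 and -0.075), and were lower in rescue than in empty vector (-0.21, adjusted p = 0.0135, and -0.16, adjusted p = 0.049), the Acadl call being lost under 15 of 18 alternatives and the Acadvl call without rescue replicate 2. Acads, for short chains, passed in no comparison, with log2 values of -0.020 to -0.059. Of the exon bases of Acadvl, 42.9% overlap Dvl2 on the opposite strand, and since the strand setting of the counting was not given in the sources used here, reads of the 2 genes may be mixed.

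The 5 listed genes of the later steps rose together in knockout cells. All 5 genes for hydration, the second oxidation and thiolysis were higher than in empty vector, beside 29.5% of all tested genes. Their log2 changes were 0.31 to 0.41, and each of these calls held under all 18 alternatives. Of 19 other genes of mitochondrial fatty acid oxidation, 7 rose and 5 fell in that comparison. Hsd17b10 (-0.31) and Acat1 (-0.86) were among those that fell. In rescue against knockout 4 of the 5 later-step genes fell, beside 27.3% of all tested genes, and Echs1 did not. Hadha and Hadhb encode the alpha and beta subunits of the mitochondrial trifunctional protein, which carries out all of these steps on long chains, and are transcribed from the head-to-head start region shown above. Hadha (chr5:30118304-30155162, minus strand) had 124, 113 and 118 CPM in rescue, 166, 173 and 180.2 in knockout and 125, 137 and 139 in empty-vector libraries. Hadhb (chr5:30155248-30184593, plus strand) had 53.2, 45.6 and 49.8 CPM in rescue, 79.0, 80.5 and 81.7 in knockout and 64.9, 56.8 and 59.9 in empty-vector libraries. For both genes the knockout libraries were highest and the rescue libraries lowest, with no overlap between any groups. For Hadha, however, rescue replicate 1 and empty-vector replicate 1 nearly met.

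Hadha rose by 0.37 ± 0.063 on the log2 scale in knockout against empty vector (adjusted p = 3.66e-05) and Hadhb by 0.41 ± 0.069 (adjusted p = 3.98e-05). In rescue against knockout Hadha changed by -0.55 ± 0.063 (adjusted p = 4.04e-07) and Hadhb by -0.70 ± 0.070 (adjusted p = 6.47e-08). Both were also lower in rescue than in empty vector (-0.17, adjusted p = 0.0286, and -0.29, adjusted p = 0.00204), the Hadha call being lost under 6 alternatives. The ratio of Hadha to Hadhb in FPKM was 1.81 ± 0.063 in rescue, 1.63 ± 0.040 in knockout and 1.68 ± 0.19 in empty-vector cells (SD, n = 3 each). Of the 50-base words in Hadhb transcripts, 19.7% also occur in other genes, chiefly Gm13910, which averaged 19.2 CPM in rescue, 28.2 in knockout and 22.5 in empty-vector cells, so the level of Hadhb is less certain than that of Hadha. Shares over 5% were also found for Etfb (44.8%), Acadvl (26.9%), Suclg2 (16.0%), Pdha1 (12.9%), Pdhb (11.4%), Eci2 (11.1%) and Echs1 (5.47%).

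Echs1, the short-chain enoyl-CoA hydratase (chr7:140105710-140116476, minus strand), kept its higher level in rescue cells. It had 384, 379 and 366 CPM in rescue, 300.0, 347 and 344 in knockout and 299, 237 and 255 in empty-vector libraries. Each group lay above the next without overlap, although knockout replicate 1 and empty-vector replicate 1 nearly met. The log2 change was 0.33 ± 0.080 in knockout against empty vector (adjusted p = 0.00151), 0.19 ± 0.079 in rescue against knockout (adjusted p = 0.0502) and 0.51 ± 0.080 in rescue against empty vector (adjusted p = 2.9e-05). Hadh, the 3-hydroxyacyl-CoA dehydrogenase for shorter chains, and Acaa2, a mitochondrial thiolase, rose in knockout (0.37, adjusted p = 5.02e-05, and 0.31, adjusted p = 0.000399). They fell in rescue against knockout (-0.32, adjusted p = 0.000224, and -0.22, adjusted p = 0.00688), and these last 2 calls were lost with library totals. Neither passed in rescue against empty vector.

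Both auxiliary isomerases and 2 of the 3 electron acceptor genes of the first oxidation fell in knockout against empty vector, and the third, Etfb, did not pass. Of all tested genes, 31.1% were lower in that comparison. Eci1, which moves double bonds of unsaturated chains into place for the hydratase (chr17:24426683-24439316, plus strand), had 19.2, 19.1 and 19.1 CPM in rescue, 19.6, 19.0 and 18.6 in knockout and 28.4, 33.2 and 31.6 in empty-vector libraries. Rescue and knockout overlapped, with a log2 difference of 0.0083 ± 0.085 (adjusted p = 0.941), and both lay below every empty-vector library, by -0.70 ± 0.082 for knockout (adjusted p = 4.5e-07) and -0.69 ± 0.081 for rescue (adjusted p = 1.11e-06). Eci2, a related isomerase, was lower in knockout than in empty vector (-0.19, adjusted p = 0.0209) and higher in rescue than in knockout (0.33, adjusted p = 0.000301), the first call being lost with DESeq2 and without empty-vector replicate 1 or knockout replicate 3.

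Etfa and Etfb encode the subunits of the electron transfer flavoprotein, which takes electrons from the acyl-CoA dehydrogenases, and Etfdh encodes the membrane enzyme that passes them to ubiquinone. Etfa (chr9:55454508-55512243, minus strand) had 122, 134 and 141 CPM in rescue, 92.2, 90.3 and 89.5 in knockout and 119.9, 110.0 and 119 in empty-vector libraries. The knockout libraries were lowest and the rescue libraries highest, without overlap. Its log2 change was -0.36 ± 0.064 in knockout against empty vector (adjusted p = 7.16e-05), 0.54 ± 0.064 in rescue against knockout (adjusted p = 6e-07) and 0.18 ± 0.063 in rescue against empty vector (adjusted p = 0.0236), the last call being lost with no filter on low counts and without empty-vector replicate 2 or rescue replicate 2 or 3. Etfdh fell in knockout against empty vector (-0.37, adjusted p = 2.5e-05) and rose in rescue against knockout (0.24, adjusted p = 0.00221). Etfb was called higher in rescue than in knockout (0.42 ± 0.13, adjusted p = 0.0107) and than in empty vector (0.32 ± 0.13, adjusted p = 0.0477), and its knockout against empty vector value was -0.10 (adjusted p = 0.534). The call against empty vector was lost under 10 of 18 alternatives, and the call against knockout without knockout replicate 3 or rescue replicate 2. Its level is uncertain, since 53.0% of its exon bases are shared with the gene Gm45233, which is listed at 0.

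**Figure D3:**
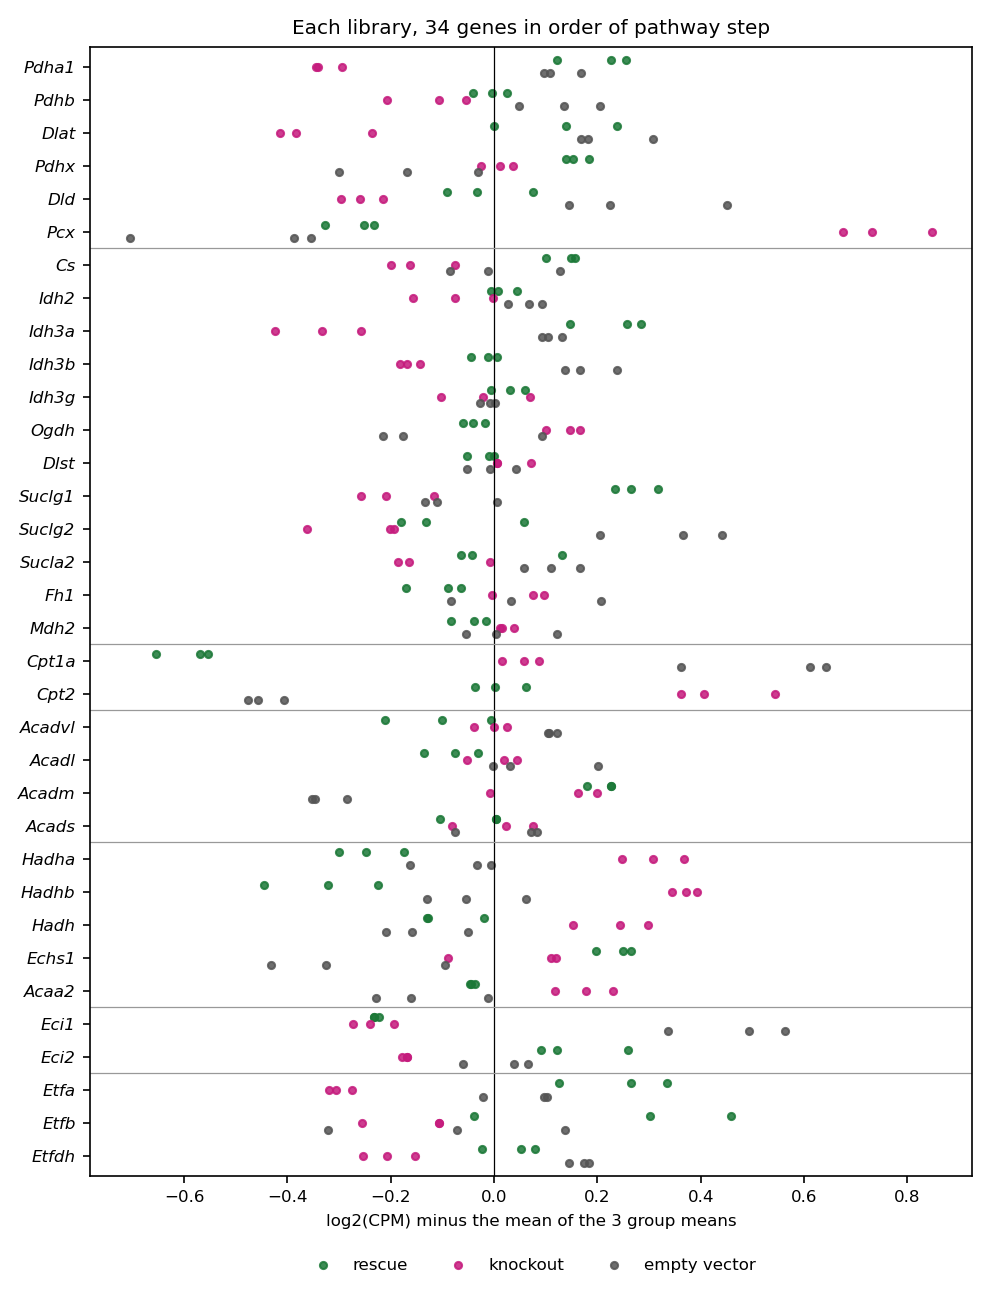
Each of the 9 libraries for each of the 34 genes, as log2 CPM minus the mean of the 3 group means, with rescue drawn above knockout and empty vector in each row. The knockout points stand to the right of the other 6 for Pcx, Cpt2, Hadha and Hadhb, and to the left for Pdha1, Dlat, Idh3a and Etfa.

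The knockout libraries stood apart from both other groups for 17 of the 34 genes. All 3 lay above the 6 other libraries for 7 genes (20.6%, beside 21.3% of all tested genes), namely Pcx, Ogdh, Cpt2, Hadha, Hadhb, Hadh and Acaa2. They lay below for 10 genes (29.4%, beside 22.8% of all), namely Pdha1, Pdhb, Dlat, Dld, Idh3a, Idh3b, Suclg2, Eci2, Etfa and Etfdh. Of the 7 genes above, 4 belong to the hydration, second oxidation and thiolysis step, which holds 5 of the 34 genes. Of the 10 below, 7 belong to pyruvate entry or the cycle, which hold 18 of the 34. Pcx and Ogdh, above, belong to pyruvate entry and the cycle as well. For Eci1, Acadm and Cpt1a, by contrast, knockout did not stand apart in this way: rescue stayed with knockout for Eci1 and Acadm and lay beyond it for Cpt1a.

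Summed over the genes, the pyruvate and cycle arm took 3358 ± 68.2 CPM in rescue, 3147 ± 22.0 in knockout and 3476 ± 169 in empty-vector cells, and the fatty acid arm took 1475 ± 4.40, 1549 ± 55.6 and 1466 ± 38.7 CPM in the same order (SD, n = 3 each). As a share of all counts, without TMM factors, the 34 genes took 0.507% in rescue, 0.434% in knockout and 0.508% in empty-vector cells. On that scale the fatty acid arm took 0.155% ± 0.00055 in rescue, 0.143% ± 0.0073 in knockout and 0.151% ± 0.00091 in empty-vector cells (SD, n = 3 each), so that its knockout mean was the lowest of the 3 as a share and the highest in CPM. In bulk RNA, fewer cells of a kind and less RNA per cell cannot be told apart. Replicates of these genes were close, with a median coefficient of variation of 3.67% in rescue, 4.03% in knockout and 5.67% in empty-vector libraries, against 6.15%, 6.82% and 8.43% over all tested genes.

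On the per-kilobase scale of FPKM, Mdh2 was the most abundant of the 34 in every group, at 145 in rescue, 153 in knockout and 152 in empty-vector cells, followed by Acadl at 95.9, 102 and 107. The lowest were Hadhb in rescue (7.46), Eci2 in knockout (7.81) and Pcx in empty-vector cells (7.87). Pcx ranked 33 of 34 in rescue, 22 in knockout and 34 in empty-vector cells, and Cpt1a ranked 20, 13 and 11. The ratio of Pcx to Pdha1, the 2 fates of pyruvate, was 0.240 ± 0.019 in rescue, 0.701 ± 0.049 in knockout and 0.219 ± 0.026 in empty-vector cells. Within the isocitrate dehydrogenase, Idh3a over Idh3g was 0.750 ± 0.053, 0.524 ± 0.053 and 0.708 ± 0.017 in the same order, and Suclg2 over Sucla2 was 1.08 ± 0.15, 1.04 ± 0.066 and 1.34 ± 0.15 (SD, n = 3 each).

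**Figure D4:**
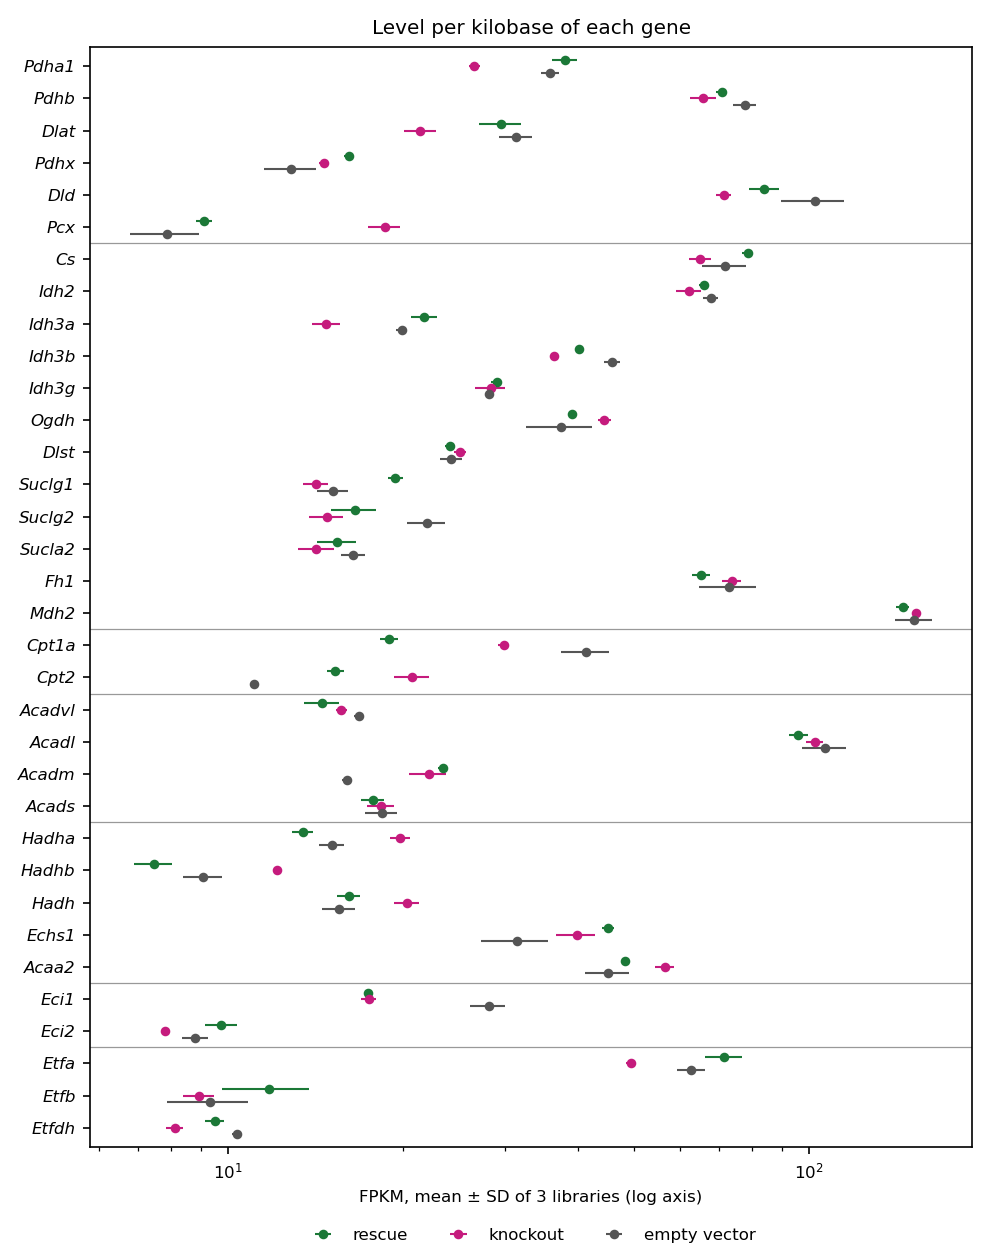
Level of each of the 34 genes in FPKM, mean and SD of 3 libraries, on a log axis, with rescue drawn above knockout and empty vector in each row and lines between pathway steps. Mdh2 lies at the right, at 145 to 153 in all groups, while Pcx moves to 18.6 in knockout against 7.87 in empty vector.

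Genes that act on these enzymes were counted in lists of their own. Over all tested genes 29.5% were higher and 31.1% lower in knockout against empty vector. The shares were 29.5% and 27.3% in rescue against knockout, and 22.4% and 25.1% in rescue against empty vector. Whether the counts of any list below differ from these shares was not tested. Of 11 tested genes of pyruvate transport and pyruvate dehydrogenase control, 4 rose and 5 fell in knockout against empty vector, 4 rose and 2 fell in rescue against knockout, and 2 rose and 2 fell in rescue against empty vector. Pdk4, a kinase that switches pyruvate dehydrogenase off, had 13.5, 14.9 and 14.5 CPM in rescue, 6.29, 7.02 and 6.19 in knockout and 15.9, 17.2 and 17.6 in empty-vector libraries, and Pdk1, another such kinase, averaged 62.3 ± 5.67, 33.0 ± 1.55 and 40.9 ± 3.96 CPM (SD, n = 3 each). Pdk4 fell in knockout against empty vector (-1.39 ± 0.11, adjusted p = 1.38e-09) and rose in rescue against knockout (1.14 ± 0.11, adjusted p = 2.74e-08), as did Pdk1 by 0.92 (adjusted p = 1.41e-08). Pdp2, a phosphatase that switches the complex on, had 57.4, 49.8 and 50.1 CPM in rescue, 115, 114 and 114 in knockout and 49.9, 49.0 and 54.6 in empty-vector libraries. Its log2 change was 1.16 ± 0.068 in knockout against empty vector (adjusted p = 3.53e-11) and -1.12 ± 0.068 in rescue against knockout (adjusted p = 5.21e-11). Pdk2 was higher in knockout (0.52) and rescue (0.67) than in empty vector, while Lipt1, which attaches lipoate to the E2 subunits, was lower in both (-0.67 and -0.59). Pdk3 had no counts.

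Of 16 other cycle and adjoining genes, 8 rose and 3 fell in knockout against empty vector, 6 rose and 6 fell in rescue against knockout, and 8 rose and 5 fell in rescue against empty vector. Idh1, the cytosolic NADP-dependent isocitrate dehydrogenase, had 99.8, 98.2 and 90.1 CPM in rescue, 147, 154 and 162 in knockout and 41.1, 31.7 and 34.7 in empty-vector libraries. Its log2 change was 2.10 ± 0.081 in knockout against empty vector (adjusted p = 1.51e-13), -0.69 ± 0.076 in rescue against knockout and 1.42 ± 0.081 in rescue against empty vector. Got1, the cytosolic aspartate aminotransferase, fell in knockout against empty vector (-0.67) and was also lower in rescue than in empty vector (-0.66). Sdha, the flavoprotein of succinate dehydrogenase, fell in rescue against knockout (-0.50) without passing in knockout against empty vector (-0.064), and Sdhd, a membrane anchor of that enzyme, was higher in rescue than in empty vector (0.65).

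Of 19 other genes of mitochondrial fatty acid oxidation, 7 rose and 5 fell in knockout against empty vector, 3 rose and 9 fell in rescue against knockout, and 5 rose and 5 fell in rescue against empty vector. Acacb, whose product makes the malonyl-CoA that inhibits Cpt1a, had 36.0, 36.1 and 35.4 CPM in rescue, 78.3, 77.9 and 69.9 in knockout and 28.6, 27.8 and 26.3 in empty-vector libraries. It rose in knockout against empty vector (1.45 ± 0.068, adjusted p = 1.75e-12) and fell in rescue against knockout (-1.07 ± 0.067, adjusted p = 8.52e-11). Crat, carnitine acetyltransferase, rose in knockout against empty vector (0.90, adjusted p = 1.69e-09). Acat1, the acetoacetyl-CoA thiolase of ketone and isoleucine metabolism, averaged 108 ± 3.08 CPM in rescue, 61.0 ± 0.886 in knockout and 111 ± 5.37 in empty-vector cells, with log2 changes of -0.86 ± 0.060 and 0.83 ± 0.060 in knockout against empty vector and rescue against knockout. Slc25a20, the carnitine-acylcarnitine carrier between Cpt1a and Cpt2, was lower in rescue than in empty vector (-0.60, adjusted p = 2.72e-06), and Acad10 fell in rescue against knockout (-0.92, adjusted p = 3.03e-08).

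Peroxisomal oxidation and the regulators were read in the same way. Of 10 tested peroxisomal genes 4 rose and 1 fell in knockout against empty vector, 2 rose and 3 fell in rescue against knockout, and 3 rose and 3 fell in rescue against empty vector. In knockout against empty vector Acox3, an acyl-CoA oxidase, rose (0.54) and Pecr, an enoyl-CoA reductase, fell (-0.78). Of 7 tested regulators, 3 rose and 2 fell in knockout against empty vector, 4 rose and 2 fell in rescue against knockout, and 3 rose in rescue against empty vector. Ppargc1a, the coactivator PGC-1 alpha of mitochondrial biogenesis, had 13.5, 11.7 and 14.3 CPM in rescue, 3.43, 2.23 and 1.90 in knockout and 9.59, 12.4 and 14.3 in empty-vector libraries. Its log2 change was -2.29 ± 0.20 in knockout against empty vector (adjusted p = 3.7e-08) and 2.41 ± 0.20 in rescue against knockout (adjusted p = 2.08e-08), and rescue against empty vector did not pass (0.12). Nrf1, a factor for nuclear genes of respiration, fell (-0.50) and Rxra, a partner of the PPAR receptors, rose (0.71) in knockout against empty vector, and Ppard was higher in rescue than in empty vector (0.62). Ppara had no counts, and Pparg had 1 count in each of 2 libraries.

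**Figure D5:**
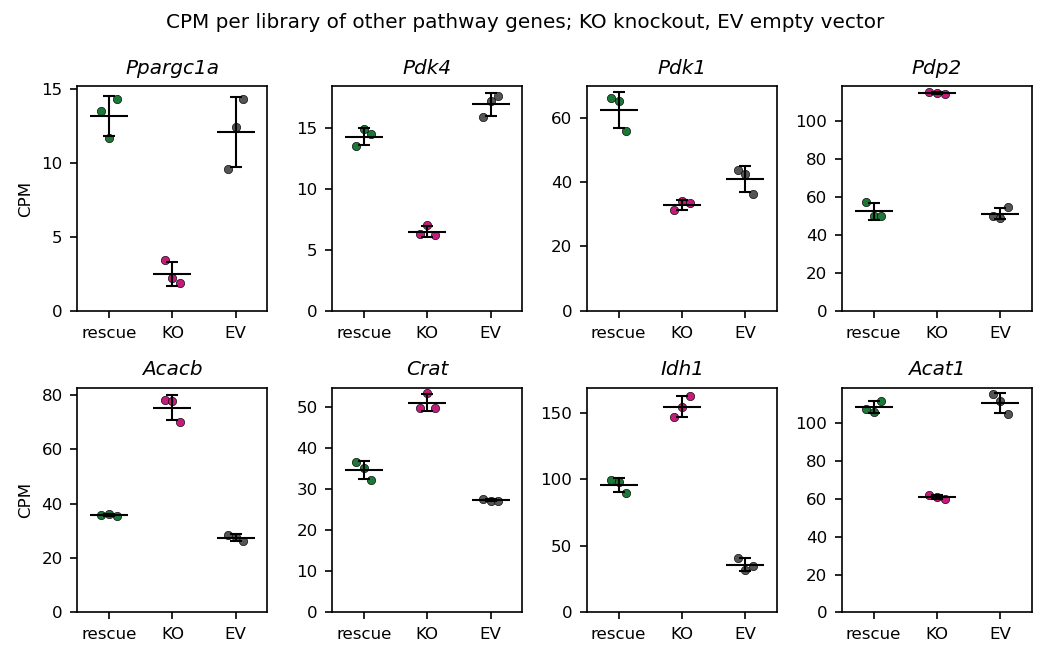
CPM of 8 other genes of these pathways in each library (points), with the mean and SD of 3 libraries as bars, rescue left, then knockout (KO) and empty vector (EV), each axis starting at 0. Ppargc1a, Pdk4 and Acat1 are lowest in knockout, while Pdp2, Acacb, Crat and Idh1 are highest there.

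The authors' deposited table, read at its own adjusted p under 0.05, gave 9 of the 34 genes as higher and 12 as lower in knockout than in empty vector. It gave 9 as higher and 12 as lower in knockout than in rescue, and 6 as higher and 6 as lower in rescue than in empty vector. The share of all genes called in that table is not given here, so whether these counts differ from it was not tested.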

How the data were processed

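The authors sequenced 9 RENCA libraries, 3 per group, of poly(A) RNA per the labels' protocols, although the molecule label reads genomic DNA. Those protocols describe directional and non-directional preparation without saying which was used. CASAVA, HISAT2, HISAT, TopHat2 and the build mm10 stand in the submitters' processing notes, with no versions or roles; the counter and its strand setting were not given in the sources used here. The authors deposited whole-number counts per gene without normalization, per the file headers and values, and FPKM values per library. Their deposited table also holds the authors' log2 fold changes with p-values, raw and adjusted; their test is unknown here.

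For the tests, edgeR 4.0.16 was run in R 4.3.3 on the counts. filterByExpr kept 13326 of 54532 genes. TMM factors set the scale, and a robust quasi-likelihood model took 1 mean per group over all 9 libraries. Adjusted p-values are Benjamini-Hochberg over all tested genes, called under 0.05, and an SE is the absolute log2 change over the square root of the F statistic. CPM uses TMM-scaled library sizes, and FPKM served only to compare levels between genes. Depth was 13106531 to 26643877 counts. Replicate pairs all differed beyond sampling noise, at chi-square values of 3.64 to 20.1 per degree of freedom. The alternatives included DESeq2 1.42.0. Promoters are from the RefSeq table of GRCm38.p6, and shared exons and 50-base words were found in the GENCODE annotation and transcripts.

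The members and lists were chosen with earlier results of these data known. All 34 genes are named, with values in every library for those called with a log2 change of at least 0.5 in either direction; of other genes, up to 3 per list and comparison with the smallest adjusted p among called genes whose groups do not overlap. Some genes that this rule names are not reported here.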

Additional observations from a re-analysis of the deposited data

How the results depend on the processing

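Each of the 3 comparisons was repeated under 18 alternatives: other scalings, filters and tools, 2-group fits, a replicate block and the removal of each library. In knockout against empty vector 20 of 25 called genes kept their call in all 18, the exceptions being Cs, Idh2, Pdhx, Ogdh and Eci2; in rescue against knockout 13 of 19 did, the exceptions being Acaa2, Dld, Etfb, Hadh, Idh3b and Ogdh; and in rescue against empty vector 11 of 16 did, the exceptions being Acadl, Acadvl, Etfa, Etfb and Hadha. With library totals as the scale, 20 members were higher and 5 lower in rescue than in knockout, Ogdh turned to 0.0081 (adjusted p = 0.921) and Dlst to 0.14 (adjusted p = 0.0426) there; that scale moves the median of all genes. Leaving out 1 library gave 8 to 10 members higher and 12 to 14 lower in knockout against empty vector. It gave 9 to 15 and 7 to 9 in rescue against knockout, and 5 to 13 and 6 to 9 in rescue against empty vector. The 13 came without empty-vector replicate 1, and the cause was not tested. Of all tested genes, 54.2% to 61.9%, 50% to 60.8% and 38.2% to 51.1% were called in these fits, in the same order. DESeq2 gave 10 higher and 12 lower, 10 and 9, and 6 and 8 in the same order of comparisons, beside 57.1%, 53.5% and 44.4% of all tested genes called. Libraries with the same replicate number did not deviate together (correlations of -0.15 to 0.045, with 0 of 9 over 0.1). With the replicate block the members called were 9 higher and 13 lower in knockout against empty vector. They were 11 and 8 in rescue against knockout, and 6 and 8 in rescue against empty vector. Of all tested genes, 59.2%, 55.3% and 45.7% were called with the block. Depth limits Ndufa4l2, with 6 to 73 counts per library, more than any of the 34 genes.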
